A study of Arabidopsis thaliana with 15 samples.

Results

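The genes described here are 50 Arabidopsis thaliana loci that encode proteins of the cytosolic ribosome, 30 of the large subunit and 20 of the small subunit, among 14391 loci in the deposited count table. They were chosen as a list of loci from both subunits, with earlier results of these data known, and 50 of 50 were in the table. The low-count filter kept 49 of them among 9891 genes tested. The gene set aside was RPL10B, with 0 to 6.84 CPM (counts per library, brought to the same total) over the libraries. The reference annotation gives 20 of the names used here, and it describes the other 30 loci by their ribosomal protein family only.

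The libraries were made from roots of wild-type Columbia-0 seedlings, 7 days old, with 3 biological replicates (letters a, b and c) of 30 to 50 pooled seedlings in each of 5 groups. The groups were 3 exposures to 10 µM Rose Bengal (RB), lasting 1 h, 2 h or 3 h, a combined treatment (RBH) for 2 h labelled as 5 mM H2O2 with 10 µM MRB, and water. The sources used here do not say what MRB is. Water libraries carry a label of 1 h exposure and a title of time 0. They are the only water group, so exposure time and dye cannot be told apart at 2 h and 3 h. RB is a dye that makes singlet oxygen in light, and the sources used here do not state the light conditions of the treatment. P-values measure the spread between the replicates as labelled.

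A ribosome has a small subunit, which reads the messenger RNA, and a large subunit, which joins the amino acids. Each is built from ribosomal RNA and many proteins, and in Arabidopsis most of these proteins are encoded by several paralogous genes. Plant ribosomal protein genes are known for high transcript levels in growing tissue such as the root tip, and many carry 2 short promoter elements, the telo box and the site II element.

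To show these elements, the 250 bases before the annotated gene start were read from the RefSeq genome TAIR10.1 by locus. The sources used here do not name the build the authors counted on, and the table was joined by locus only. The telo box was searched as AAACCCTA and site II as TGGGCC or TGGGCT, on both strands. The 2 site II forms differ in their last base, and TGGGCC can overlap its own reverse complement. A site II element stood before 35 of the 50 genes (70.0%), against 19.2% of 27438 protein-coding genes. The telo box stood before 7 of 50 (14.0%), against 4.49% of protein-coding genes. Both were found before 6 of the 50 genes, against 1.36% of protein-coding genes, and neither before 14 genes (28.0%), against 77.7%. The 2 subunits had the same share with site II, 21 of 30 large-subunit genes and 14 of 20 small-subunit genes. These are letter matches in 1 window, not measured binding.

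The promoters of 3 genes that carry the main results below are shown, with the motif matches in capitals. RPL19B (AT3G16780) lies on the plus strand at chr3:5708576-5708825, RPL8A (AT2G18020) on the plus strand at chr2:7836817-7837066, and RPS25B (AT2G21580) on the plus strand at chr2:9236231-9236480. RPL19B and RPL8A fell with RB, and RPS25B was higher with RBH. RPL19B has 2 matches to TGGGCC, RPL8A has 1 match to each form, and RPS25B has 3 matches to TGGGCT. None of the 3 has a telo box. RPL4D, RPS13A and RPS21B, also among the genes of the main results, have no match to either element in this window.
RPL19B: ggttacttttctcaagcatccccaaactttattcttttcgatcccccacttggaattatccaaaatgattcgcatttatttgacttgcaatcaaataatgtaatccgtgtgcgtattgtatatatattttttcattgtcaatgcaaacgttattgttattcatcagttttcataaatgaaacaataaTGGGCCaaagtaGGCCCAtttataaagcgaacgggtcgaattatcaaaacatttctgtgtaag
RPL8A: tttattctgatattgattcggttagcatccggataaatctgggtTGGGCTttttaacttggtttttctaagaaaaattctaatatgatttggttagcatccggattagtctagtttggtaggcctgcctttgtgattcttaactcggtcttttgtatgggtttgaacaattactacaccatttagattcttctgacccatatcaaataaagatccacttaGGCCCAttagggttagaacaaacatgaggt
RPS25B: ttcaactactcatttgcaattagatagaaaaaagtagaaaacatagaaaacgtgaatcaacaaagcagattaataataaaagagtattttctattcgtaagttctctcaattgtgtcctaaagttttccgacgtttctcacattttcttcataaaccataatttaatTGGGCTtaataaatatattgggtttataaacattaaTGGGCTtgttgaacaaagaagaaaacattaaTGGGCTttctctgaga
By call, site II stood before 13 of the 20 genes called lower at RB 2 h or RB 3 h (65.0%) and before 22 of the other 30 genes (73.3%). It stood before 15 of the 23 genes called higher in RBH than in RB 2 h (65.2%) and before 20 of the other 27 (74.1%). These shares are descriptions without a test.

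Library totals ran from 897728 to 6230975 counts. Libraries RB 1 h b and RB 2 h a stood apart from the others on the third principal component (7.40% of the variance of log2 CPM), and values without them are given where they matter. All 9 root marker genes, among them the aquaporin genes TIP2;2 and TIP2;3 and the Casparian strip genes CASP1 and CASP2, were detected. Only NRT2.1 and COBL9 among them were at 0 in any library, in 2 libraries each. Their summed share of the counts spanned 0.509% to 0.549% in the water libraries. It spanned 0.278% to 0.338% after 1 h in RB, 0.113% to 0.152% after 2 h and 0.0699% to 0.0889% after 3 h, and 0.115% to 0.210% after RBH. Of the 9, 7 were called lower than in water at RB 2 h, 8 at RB 3 h and 7 in RBH. Over all genes tested, 12.2%, 16.6% and 12.6% were called lower in these comparisons. Of 12 shoot green tissue genes, 12 were in the table and 7 were tested. Their summed share was between 0.0155% and 0.0711% in all libraries, with RB 3 h lowest (0.0155% to 0.0186%) and 1 RBH library highest. Compared with water, 4 of the 7 were called lower at RB 3 h (against 16.6% of all genes) and 1 higher in RBH (against 14.4%). The markers' part in the ribosomal protein results was not tested. In whole roots, fewer cells of a type and less RNA per cell cannot be told apart.

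The ribosomal protein genes took a smaller share of the root counts after RB and a share near the water level or above it after RBH. The 50 genes together took 6.47% to 6.86% of all counts in the water libraries. After RB they took 5.48% to 6.39% at 1 h, 5.12% to 5.72% at 2 h and 4.98% to 5.50% at 3 h, and after RBH 6.28% to 7.72%. Every RB library was below every water library, while the RBH range enclosed the water range. The large-subunit genes averaged 3.09 ± 0.16% of counts in RB 3 h and 4.10 ± 0.11% in water, and the small-subunit genes 2.16 ± 0.11% in RB 3 h and 2.60 ± 0.10% in water (SD, n = 3 each). These shares have no test, since the genes are not replicates.

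**Figure D1:**
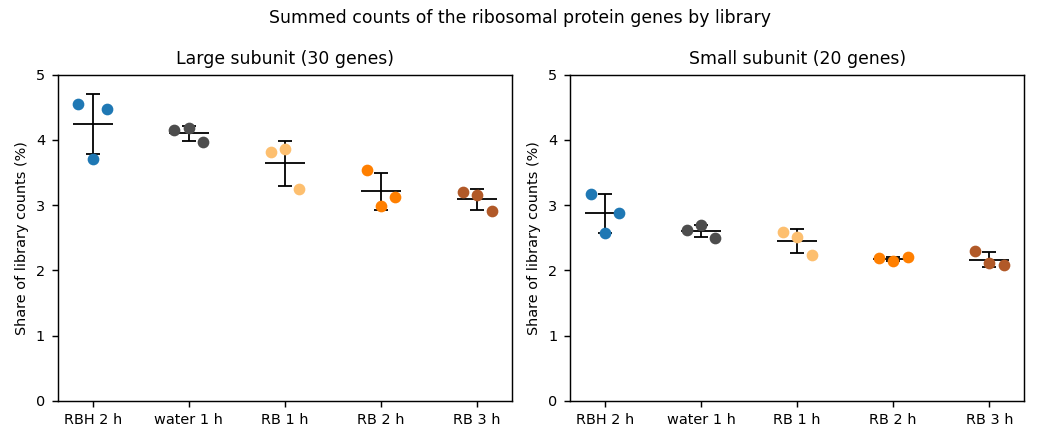
Summed counts of the 30 large-subunit and the 20 small-subunit ribosomal protein genes as a share (%) of each library's counts, with points for libraries a, b and c in order and bars for the mean ± SD of 3 libraries. In both panels the RB 3 h libraries lie below the water libraries, at 2.90% to 3.21% for the large subunit, against 3.97% to 4.17% in water.

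After 1 h in RB, RPL9C was the only 1 of the 49 genes called, and it was higher. Calls were made by edgeR's quasi-likelihood F test with Benjamini-Hochberg adjustment over all genes tested (adjusted p under 0.05). At an unadjusted p under 0.05, 3 genes were higher and 13 lower, and DESeq2 called 3 higher and 0 lower. Over all 9891 genes, 3.07% were called higher and 2.32% lower. The median log2 fold change of the 49 genes was -0.22, against 0.02 over all genes tested, and 34 of the 49 were below 0.

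RPL9C (AT1G33140), a large-subunit protein of the L9 family (uL6), had 447, 298 and 306 CPM in RB 1 h (libraries a, b and c), against 168, 262 and 223 CPM in water (log2 fold change 0.69, SE 0.20, adjusted p = 0.0448). The ranges did not overlap, and water a was the lowest library. The call was lost without any 1 of water a, water c or RB 1 h a (adjusted p 0.228, 0.129 and 0.319). In the later RB groups RPL9C was at 218, 165 and 211 CPM in RB 2 h and 223, 275 and 236 CPM in RB 3 h, both overlapping water.

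The count at 1 h depended on library RB 1 h b, whose values lay near water for many of the genes. Without it, 11 genes were called, 3 higher and 8 lower. Without it and RB 2 h a, 16 were called, 3 higher and 13 lower. RPL8A shows the split: it had 2290.1, 3438 and 2075 CPM in RB 1 h, against 4083, 3929 and 3589 CPM in water, so that library b lay nearest to the water range (log2 fold change -0.57, SE 0.20, adjusted p = 0.102). The count was 0 without water a, water c or RB 1 h a, and 2 without water b. The shares of all genes called in these fits are not given here, so the counts cannot be set against them.

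At 2 h in RB, 14 of the 49 genes fell and none was called higher (by edgeR, also at an unadjusted p under 0.05, and by DESeq2). That is 28.6% called lower, against 12.2% of all genes called lower and 12.6% called higher. The median log2 fold change of the 49 genes was -0.39, against 0.04 over all genes, and 38 of 49 were below 0. The fall covered the stalk and several structural proteins of the large subunit (RPP0B, RPP1A, RPL4D, RPL8A, RPL15A, RPL18B, RPL19B and RPL27aC). In the small subunit it covered RPS3B, RPS9B, RPS9C, RPS10B, RPS13A and RPS21B.

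RPP0B (AT3G09200) encodes the base of the ribosomal stalk, which brings the elongation factors to the ribosome. It had 2229, 1726 and 1562 CPM in RB 2 h, against 4278, 3527 and 3592 CPM in water. It was 2.07-fold lower (log2 fold change -1.05, SE 0.19, adjusted p = 0.000205), and all RB 2 h libraries were below all water libraries. RPP1A (AT1G01100), an acidic protein of the same stalk, had 4625, 3023 and 3642 CPM in RB 2 h, against 5682, 5569.8 and 5356 CPM in water (log2 fold change -0.56, SE 0.20, adjusted p = 0.0446). RB 2 h a was the highest of the 3 RB libraries for both genes.

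RPL19B (AT3G16780), of the L19 family (eL19), which in yeast forms a bridge between the subunits, had 393, 278 and 236 CPM in RB 2 h, against 711, 672 and 601 CPM in water. This was the largest fitted fall of the 14, 2.20-fold (log2 fold change -1.14, SE 0.23, adjusted p = 0.000577). RPL8A (AT2G18020), of the L2 family (uL2), which in other organisms lies at the peptidyl transferase centre, had 2963, 1849 and 1964 CPM in RB 2 h, against 4083, 3929 and 3589 CPM in water (log2 fold change -0.78, SE 0.20, adjusted p = 0.00597). RPL4D (AT5G02870), of the L4 family (uL4), which lines the exit tunnel of the new chain in other organisms, had 902, 629 and 583 CPM in RB 2 h, against 1203, 1141 and 1104 CPM in water (log2 fold change -0.71, SE 0.18, adjusted p = 0.0062). In each of these genes the groups did not overlap, and RB 2 h a was again the RB library nearest to water.

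Among the small-subunit genes, RPS13A (AT4G00100), of the S15 family (uS15), had 1475, 1211 and 1029.8 CPM in RB 2 h, against 2172, 2012 and 2056 CPM in water (log2 fold change -0.75, SE 0.20, adjusted p = 0.00663). The groups were apart. RPS9C (AT5G39850), of the S4 family (uS4) near the messenger RNA entry, was at a low count. It had 19.98, 11.6 and 10.8 CPM in RB 2 h, against 18.9, 34.8 and 30.5 CPM in water, and the groups overlapped (log2 fold change -1.10, SE 0.31, adjusted p = 0.00997). Its counts were 20, 24 and 27 in RB 2 h and 16, 47 and 54 in water.

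The count of 14 at 2 h depended on single libraries. It was 8 without water a, 7 without water b, 8 without water c, 9 without RB 2 h b (8 lower and 1 higher) and 3 without RB 2 h c. With 1 of these libraries left out the 2 h group or the water group holds 2 libraries. RPP0B, RPL19B and RPL8A were called in every one of these fits, and RPL4D and RPS13A lost theirs without RB 2 h c (adjusted p = 0.0506 and 0.0517). RPS9C lost its call without water b or RB 2 h c (adjusted p = 0.0757 and 0.0745), and its call at RB 3 h was lost under 7 of 16 alternatives (adjusted p up to 0.173). At RB 2 h, RPS21B lost its call under 5 of 16 alternatives (adjusted p up to 0.149). RPS3B, whose RB 2 h and water ranges overlapped, lost its 2 h call under 7 of 16 (adjusted p up to 0.233).

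**Figure D2:**
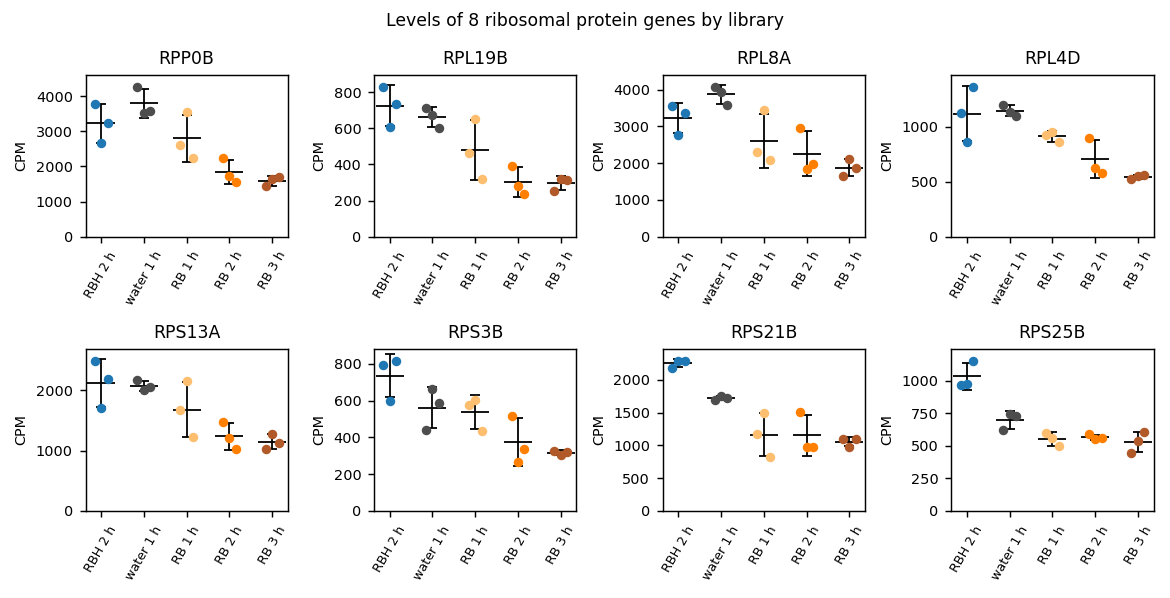
Level (CPM) of 8 ribosomal protein genes in 15 libraries, with points for libraries a, b and c in order and bars for the mean ± SD of 3 libraries. RPP0B has 1435 to 1711 CPM in RB 3 h, below its 3527 to 4278 CPM in water, while RPS21B and RPS25B lie above their water libraries in RBH.

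By 3 h in RB, 19 of the 49 genes were called lower and 1 higher. That is 38.8% lower, against 16.6% of all genes called lower and 16.2% called higher. The median log2 fold change was -0.40, against 0.01 over all genes. The genes called lower were RPL4A, RPL4D, RPL8A, RPL13B, RPL15A, RPL18B, RPL19B, RPL24A, RPL24B, RPL28A, RPP0B and RPP1A of the large subunit. In the small subunit they were RPS3B, RPS9B, RPS9C, RPS10B, RPS13A, RPS21B and RACK1A. The count was 13, all lower, without RB 3 h b.

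The lowest adjusted p was again that of RPP0B, with 1435, 1637 and 1711 CPM in RB 3 h, against 4278, 3527 and 3592 CPM in water, 2.38-fold lower (log2 fold change -1.25, SE 0.19, adjusted p = 1.62e-05). RPL4D had 525, 549 and 558 CPM in RB 3 h, against 1203, 1141 and 1104 CPM in water (log2 fold change -1.08, SE 0.19, adjusted p = 7.45e-05). RPL8A had 1652, 2118 and 1866 CPM in RB 3 h (log2 fold change -1.04, SE 0.20, adjusted p = 0.000298) and RPL19B 251, 319.7 and 317 CPM (log2 fold change -1.16, SE 0.23, adjusted p = 0.000314), against the water values above. In all 4 genes every RB 3 h library was below every water library.

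RPL4A (AT3G09630), the paralog of RPL4D, was called lower at 3 h, with 750.2, 799 and 692 CPM, against 1428, 1083 and 1096 CPM in water (log2 fold change -0.69, SE 0.17, adjusted p = 0.00298). RACK1A (AT1G18080), a scaffold protein on the head of the small subunit that also binds signalling proteins, had 1002, 1258 and 1282 CPM in RB 3 h, against 1809, 1731 and 1627 CPM in water (log2 fold change -0.54, SE 0.19, adjusted p = 0.0341). RPL24A and RPL24B encode the L24 family protein (eL24), of which RPL24B is known for reinitiation after upstream reading frames. They had log2 fold changes of -0.69 (SE 0.19, adjusted p = 0.00559) and -0.57 (SE 0.19, adjusted p = 0.0264). The groups were apart for each of these genes.

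RPL5B (AT5G39740), whose protein binds the smallest ribosomal RNA of the large subunit, was the gene called higher at 3 h. It had 157, 225 and 179 CPM in RB 3 h, against 40.2, 121 and 85.9 CPM in water (log2 fold change 1.15, SE 0.40, adjusted p = 0.038). Water a was the lowest library, and without water a the value was 0.86 (adjusted p = 0.107). It also lost its call without water c (adjusted p = 0.0958), RB 3 h b (0.106) or RB 3 h c (0.0671). RPL5B had the highest mean log2 fold change against water of the large-subunit genes, 0.97 over the 4 comparisons, and RPP0B the lowest, -0.74.

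RB 3 h was set against RB 1 h directly, to test the change over time without the water libraries. Of the 49 genes, 4 were called lower and none higher (0 also at an unadjusted p under 0.05 and by DESeq2), 8.16% lower, against 8.34% of all genes lower and 9.40% higher. The share called was thus near that of all genes, with a median of -0.20, against -0.04. The 4 genes were RPP0B (1435, 1637 and 1711 CPM in RB 3 h, against 2616, 3547 and 2243 CPM in RB 1 h; log2 fold change -0.81, SE 0.19, adjusted p = 0.00338), RPL4D (log2 fold change -0.75, SE 0.18, adjusted p = 0.00534), RPS3B (log2 fold change -0.76, SE 0.22, adjusted p = 0.0154) and RPL19B (log2 fold change -0.70, SE 0.22, adjusted p = 0.0324). RPS3B (AT3G53870), of the S3 family (uS3) at the messenger RNA entry, had 327, 304 and 322 CPM in RB 3 h, against 578, 604 and 434 CPM in RB 1 h and 441, 661 and 585 CPM in water. RPS3B was lower than in water at 3 h (log2 fold change -0.83, SE 0.22, adjusted p = 0.00485), and at 1 h it differed by -0.07 (SE 0.22, adjusted p = 0.898). The count of 4 was 2 without RB 1 h a, RB 3 h a or RB 3 h b, and 6 without RB 1 h c. RPL19B lost its call without any 1 of the 6 RB 1 h and RB 3 h libraries other than RB 1 h c (edgeR adjusted p = 0.0595 to 0.2), and without RB 1 h b its difference was -0.43. RPS3B lost its call without RB 1 h a or any 1 of the RB 3 h libraries (edgeR adjusted p = 0.0502 to 0.0646).

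**Figure D3:**
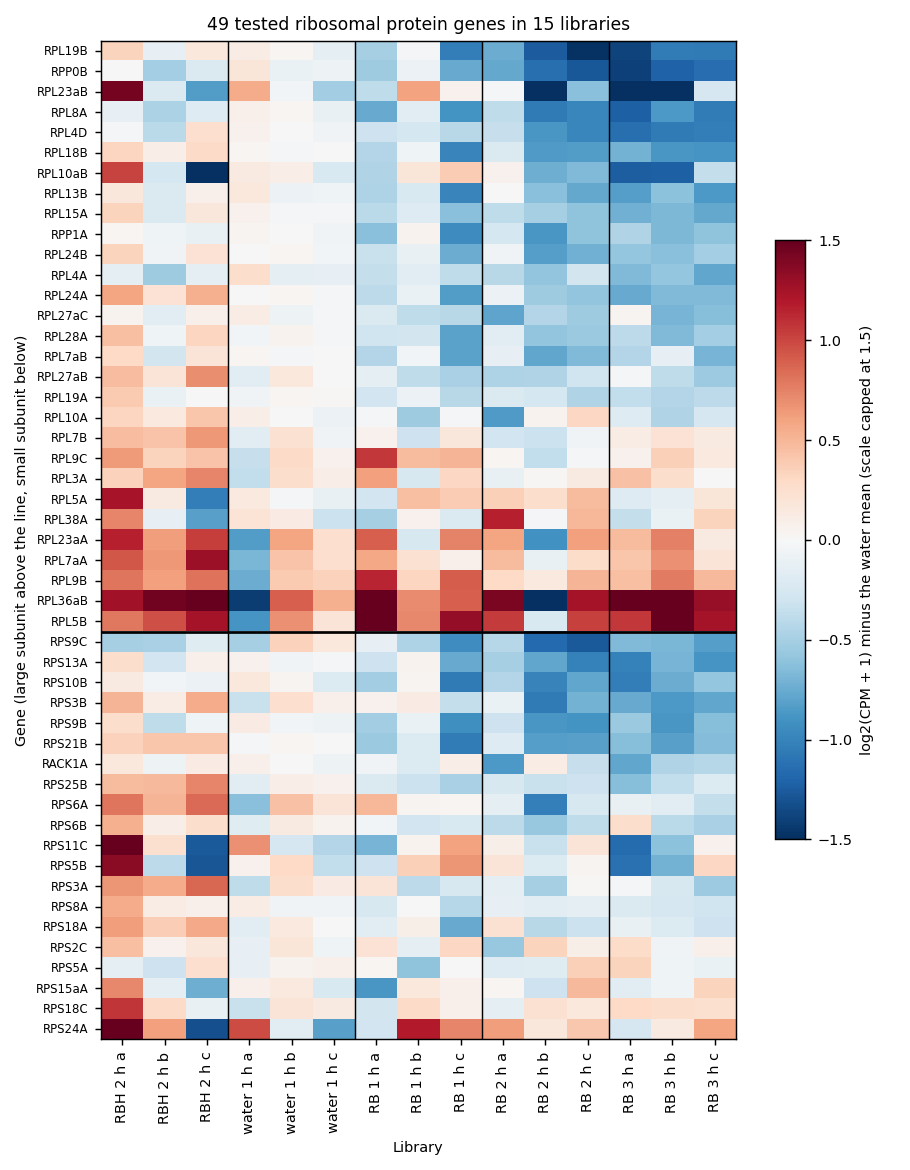
Level of each of the 49 tested genes in each library, as log2(CPM + 1) minus the mean of the 3 water libraries (blue lower, red higher, scale capped at 1.5). Genes run down within each subunit by their mean over RB 2 h and RB 3 h, and libraries run across by group. RPL19B and RPP0B, at the top, are blue in every RB 2 h and RB 3 h library and pale in RB 1 h b.

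Set against water, the RBH roots had 6 of the 49 genes called higher and none lower (0 lower also at an unadjusted p under 0.05 and by DESeq2), 12.2% higher, against 14.4% of all genes higher and 12.6% lower. The share called higher was thus near that of all genes, while no gene was called lower. The median log2 fold change was 0.25, against 0.04 over all genes, and 37 of 49 were above 0. The 6 were RPL7B, RPL7aA, RPL9B, RPS3A, RPS6A and RPS25B.

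RPL7aA (AT2G47610), of the L7a family (eL8), had 1745, 1434 and 2227 CPM in RBH, against 568, 1227 and 1084 CPM in water (log2 fold change 0.91, SE 0.24, adjusted p = 0.00666). RPS25B (AT2G21580), of the S25 family (eS25), a protein of the small-subunit head, had 971, 979 and 1155 CPM in RBH, against 622, 745 and 732 CPM in water (log2 fold change 0.56, SE 0.16, adjusted p = 0.0112). RPS3A (AT2G31610), the paralog of RPS3B, had 531, 493 and 614 CPM in RBH, against 257, 405 and 365 CPM in water (log2 fold change 0.67, SE 0.21, adjusted p = 0.0171). RPL7B (AT2G01250), of the L7 family (uL30), had 824, 806 and 942 CPM in RBH, against 530.1, 701 and 575 CPM in water (log2 fold change 0.51, SE 0.17, adjusted p = 0.0266). Every RBH library was above every water library in these genes, and water a was the lowest of the 6 libraries in each.

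The 6 calls leaned on water a. Without it 1 gene was called, RPL7aA, and without RBH c 3 were called. Without RB 1 h b and RB 2 h a, which are in neither group but share the estimate of spread, 10 were called. RPS6A (AT4G31700), whose protein is the phosphorylated target of the TOR pathway, had 1751, 1429 and 1816 CPM in RBH, against 647, 1356 and 1150.5 CPM in water (log2 fold change 0.66, SE 0.24, adjusted p = 0.0439).

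At the same 2 h, RBH was higher than RB in 23 of the 49 genes, and none was called lower (by edgeR, also at an unadjusted p under 0.05, and by DESeq2). That is 46.9% higher, against 9.82% of all genes called higher and 6.97% called lower. The median log2 fold change was 0.61, against -0.02 over all genes, and 45 of 49 were above 0. The called genes were 13 of the large subunit (RPL4D, RPL7B, RPL7aA, RPL9C, RPL15A, RPL18B, RPL19B, RPL24A, RPL24B, RPL27aB, RPL27aC, RPL28A and RPP0B) and 10 of the small subunit (RPS3A, RPS3B, RPS6A, RPS6B, RPS9B, RPS10B, RPS13A, RPS18A, RPS21B and RPS25B). This comparison shares its RB 2 h libraries with that of RB 2 h and water.

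RPL19B had 832, 606 and 738 CPM in RBH, against 393, 278 and 236 CPM in RB 2 h, 2.41-fold higher (log2 fold change 1.27, SE 0.23, adjusted p = 0.000395). RPS25B had 971, 979 and 1155 CPM in RBH, against 590.4, 552 and 561 CPM in RB 2 h (log2 fold change 0.87, SE 0.16, adjusted p = 0.000678). RPS21B (AT3G53890), of the S21 family (eS21), had 2184, 2287 and 2288 CPM in RBH, against 1504, 968 and 979 CPM in RB 2 h (log2 fold change 0.97, SE 0.20, adjusted p = 0.00125). RPL27aB (AT1G23290), of the L15 family (uL15), had 1271, 1058 and 1495 CPM in RBH, against 668, 675 and 754 CPM in RB 2 h (log2 fold change 0.87, SE 0.18, adjusted p = 0.00154). The groups were apart in all 4 genes.

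The stalk gene RPP0B had 3774, 2659 and 3246 CPM in RBH, 1.76-fold higher than in RB 2 h (log2 fold change 0.81, SE 0.19, adjusted p = 0.00419), and its log2 fold change against water was -0.24 (SE 0.19, adjusted p = 0.391). RPS6A and RPS6B, the gene pair of the S6 protein, were higher than in RB 2 h by log2 fold changes of 1.15 (SE 0.24, adjusted p = 0.00208) and 0.75 (SE 0.19, adjusted p = 0.00708). RPL4D had 1132, 864 and 1369 CPM in RBH, against 902, 629 and 583 CPM in RB 2 h, where the groups overlapped (log2 fold change 0.67, SE 0.18, adjusted p = 0.0127). The count of 23 was 15 without RB 2 h b, 12 without RB 2 h c and 14 without RBH c.

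**Figure D4:**
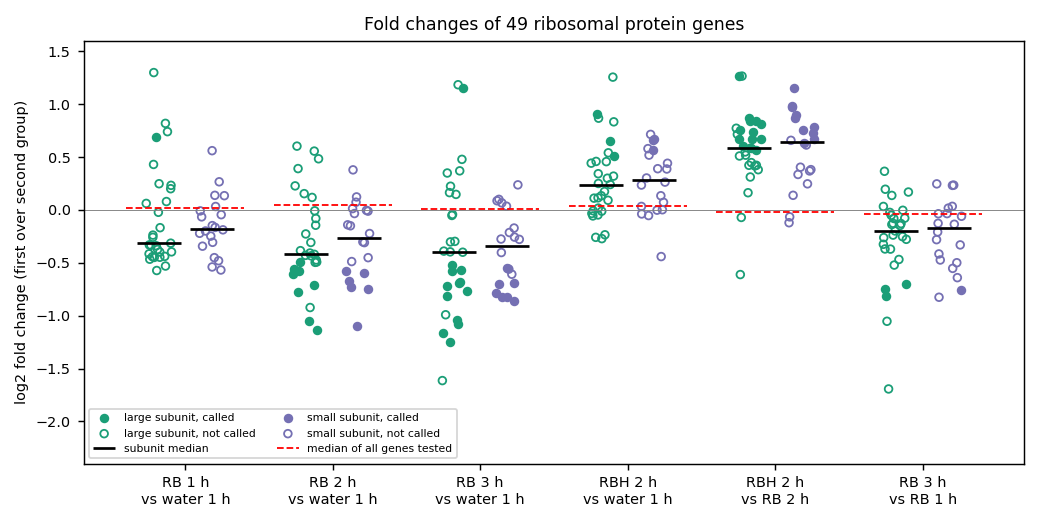
Log2 fold change (first group over second) of the 49 tested genes in the 6 comparisons, by subunit. Filled points were called at an adjusted p under 0.05, black bars are subunit medians and the red dashed line is the median of all 9891 genes. Both subunit medians lie below the line in RB 2 h and RB 3 h and above it in RBH against RB 2 h, with medians of 0.59 (large) and 0.64 (small) there.

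Counts and medians of the 2 subunits stood close together. At RB 2 h, 8 of 29 large-subunit genes (27.6%) and 6 of 20 small-subunit genes (30.0%) were called lower, with median log2 fold changes of -0.42 and -0.26. At RB 3 h, 12 of 29 (41.4%) and 7 of 20 (35.0%) were lower, with medians of -0.40 and -0.34, and the gene called higher was of the large subunit. In RBH against RB 2 h, 13 of 29 (44.8%) and 10 of 20 (50.0%) were higher, with medians of 0.59 and 0.64. In RBH against water 3 genes of each subunit were higher. No difference between the subunits was tested.

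The summed counts gave a subunit balance, the log2 of small-subunit over large-subunit counts within a library, which needs no scaling between libraries. It was -0.66 ± 0.02 in water. After RB it was -0.57 ± 0.04 at 1 h, -0.56 ± 0.11 at 2 h and -0.51 ± 0.06 at 3 h, and after RBH -0.56 ± 0.07 (SD, n = 3 each). The mean difference from water was 0.08 to 0.14 towards the small subunit in the 4 treated groups. Summed counts weight the most abundant genes. When each of the 49 tested genes counts alike (the mean of log2 CPM plus 0.5 per subunit), the differences from water were -0.08 at 1 h, 0.01 at 2 h and -0.04 at 3 h in RB and -0.05 in RBH. The shift of 0.08 to 0.14 towards the small subunit was seen in the summed counts and not with equal weights. The limit to the 49 tested genes was chosen after seeing the data. The planned version, over all 50 genes, gave differences towards the large subunit in all 4 treated groups. It includes RPL10B, and its values are given further below.

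Both paralogs were tested in 13 pairs that encode the same protein. For each pair the log2 ratio of their counts within a library, with 0.5 added to each count, was compared between the 12 dye-treated libraries (RB and RBH) and the 3 water libraries. The test was an exact two-sided permutation test over 455 assignments, whose smallest possible p is 0.0044. Of 13 pairs, 1 had a raw p under 0.05, and the smallest p after Benjamini-Hochberg adjustment was 0.114. A single pair at the smallest possible p would reach an adjusted p of 0.057, so no pair could pass 0.05 alone, and the adjusted values say little about whether the ratios changed. For a single treated group against water, 3 libraries against 3, the smallest p an exact permutation test could give is 0.1.

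The pair with the smallest p was RPL7aB and RPL7aA. Its log2 ratio was between -0.48 and 0.34 in the 12 treated libraries, with -0.24, -0.20 and -0.28 in RB 3 h and -0.03, -0.32 and -0.48 in RBH, against 1.33, 0.16 and 0.35 in water. The mean difference was -0.80 (exact permutation p = 0.00879, adjusted 0.114). Water a stood far above the other water libraries, and RB 1 h b (0.34) lay within the water range. Without water a the difference was -0.44 (exact permutation p = 0.044). In water, RPL7aA had 568, 1227 and 1084 CPM and RPL7aB (AT3G62870) 1427, 1370.0 and 1384 CPM.

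RPL19B was called lower at 2 h and 3 h and its paralog RPL19A was not. The log2 ratio of RPL19A to RPL19B was 3.51, 3.98 and 4.02 in RB 2 h, 4.02, 3.60 and 3.66 in RB 3 h and 3.04, 3.01 and 2.83 in RBH, against 2.83, 2.99 and 3.14 in water. Every RB 2 h and RB 3 h library was above every water library, and the RBH libraries lay within the water range. Over all 12 treated libraries the difference was 0.46 (exact permutation p = 0.11, adjusted 0.384). RPL19A (AT1G02780) had 4489, 4377 and 3828 CPM in RB 2 h and 4066, 3866 and 4003 CPM in RB 3 h, against 5042, 5356 and 5314 CPM in water. It was called in no comparison, although its ranges were apart from water. Its log2 fold change was -0.31 (SE 0.16, adjusted p = 0.163) at 2 h and -0.40 (SE 0.16, adjusted p = 0.0544) at 3 h.

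RPL9B and RPL9C differed by 0.31 in the mean log2 ratio (exact permutation p = 0.0967, adjusted 0.384), with -0.34, -0.10 and -0.09 in RB 2 h, against -1.01, -0.52 and -0.33 in water. Without RB 1 h b the p was 0.0495. RPL9B (AT1G33120) was called higher in RBH, with 244, 213 and 246 CPM, against 82.8, 182 and 177 CPM in water (log2 fold change 0.65, SE 0.24, adjusted p = 0.0463). RPL5A and RPL5B differed by -0.92 (exact permutation p = 0.145, adjusted 0.384), and water a (-0.13) was far from water b and c (-1.88 and -1.48). RPL5A (AT3G25520) had 36.7, 32.6 and 30.5 CPM in the water libraries. After RB it had 27.0, 45.9 and 43.5 CPM at 1 h, 43.0, 40.1 and 46.5 CPM at 2 h and 28.9, 30.0 and 37.6 CPM at 3 h, and after RBH 79.8, 36.5 and 15.7 CPM. It was called in no comparison.

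**Figure D5:**
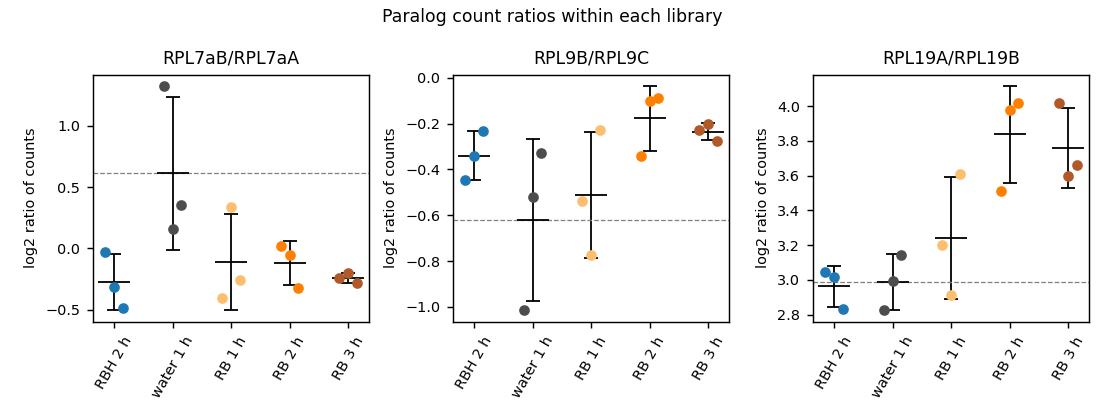
Log2 ratio of the counts of 3 paralog pairs within each library, with points for libraries a, b and c in order, bars for the mean ± SD of 3 libraries and a dashed line at the water mean. The RPL19A to RPL19B ratio is 3.51 to 4.02 in RB 2 h and 3.60 to 4.02 in RB 3 h, against 2.83 to 3.14 in water, and the RPL7a ratio in water spans 0.16 to 1.33.

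Since the reads come from near the 3′ end of transcripts, reads could be shared where paralogs have the same sequence there. Over the last 300 transcript bases in RefSeq, the 14 pairs were 51.1% to 61.4% identical, and their longest shared run was 9 to 25 bases. No pair shared any run of 30 bases. RPL9B and RPL9C held the longest run. The sources used here do not say how reads mapping to several loci were counted.

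A longer list of ribosomal protein genes was read beside the 50. Of its 167 loci, 155 are described as ribosomal proteins by the annotation and 140 were tested. At RB 2 h 27 of them fell and 2 rose (19.3% lower, against 12.2% of all genes). At RB 3 h 40 fell and 5 rose (28.6% lower, against 16.6% of all genes). In RBH 17 were higher than in water (12.1%, against 14.4% of all genes) and none was called lower by edgeR (3 at an unadjusted p under 0.05). Against RB 2 h, 46 were higher in RBH and 3 lower (32.9% higher, against 9.82% of all genes). At 1 h 3 fell (2.14%, against 2.32% of all genes). The shares at 1 h and in RBH against water were thus near those of all genes. Their medians were -0.19 at RB 2 h, -0.40 at RB 3 h, 0.29 in RBH against water and 0.57 in RBH against RB 2 h. The 50 genes and the further ones together took 12.3% to 13.5% of counts after 3 h in RB and 15.5% to 18.2% after RBH, against 15.5% to 16.4% in water.

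Translation elongation factors carry transfer RNA to the ribosome and move it along. Of 10 of their genes tested (11 listed), 5 were lower at RB 3 h (50.0%, against 16.6% of all genes) and 1 at RB 2 h (10.0%, against 12.2%), and in RBH 2 were higher than in RB 2 h (2 of 10, against 9.82% of all genes). Their summed share of counts was 1.37% to 1.61% after 3 h in RB and 1.83% to 2.14% after RBH, against 2.04% to 2.21% in water. Of 12 genes of dividing cells, 10 were in the table, and CYCA1;1 and CDKB1;1 were absent from it. Of the 10, 4 were tested and 0 were called by edgeR in the 6 comparisons (1 at an unadjusted p under 0.05 at RB 1 h and 1 in RBH against RB 2 h). Their summed share of counts lay between 0.00433% and 0.0100% at RB 1 h and between 0.00432% and 0.00606% at RB 3 h, against 0.00345% and 0.00548% as the ends of the water range. The RB 2 h and RBH ranges lay between 0.00378% and 0.00620%. At RB 1 h all 4 tested genes had a log2 fold change above 0, with a median of 0.64, and their part in the other results was not tested.

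A group of 18 genes was called in no comparison: RPL3A, RPL5A, RPL7aB, RPL10A, RPL10aB, RPL19A, RPL23aA, RPL23aB, RPL36aB, RPL38A, RPS2C, RPS5A, RPS5B, RPS8A, RPS11C, RPS15aA, RPS18C and RPS24A. A miss of the threshold does not show that they stayed level. The share of all genes tested that was called in no comparison is not given here. The counts in this paragraph therefore cannot be set against it. Of the 50 genes, 11 averaged under 100 CPM, 10 of these were tested and 1 (RPS9C) was called, against 30 of the 39 genes above that level.

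Several of the low genes did not follow library depth. RPS24A (AT3G04920), with the highest mean log2 fold change of the small subunit (0.44), had counts of 36, 17 and 12 in RBH, although RBH c held 6230975 counts in all and RBH a 1500423. That gave 27.4, 10.9 and 2.096 CPM in RBH, against 14.2, 5.93 and 3.39 CPM in water (log2 fold change 0.71, SE 0.77, adjusted p = 0.548). RPS11C (AT5G23740) likewise had counts of 139, 59 and 73 in RBH and 44, 36 and 41 in water, and 106, 37.8 and 12.7 CPM in RBH. RPS9C, with the lowest mean of the small subunit (-0.73), held 16 to 137 counts a library. Fold changes of these genes have wide errors.

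In the authors' deposited table, made with DESeq2 per the submitters' processing notes, an adjusted p under 0.05 was given to 15 of the 50 genes as lower at RB 2 h, and to 17 as lower and 1 as higher at RB 3 h. At RB 1 h it was given to 1 gene as higher, and in RB 3 h against RB 1 h to 4 as lower. In RBH it was given to 6 as higher than water and to 24 as higher than RB 2 h. The 6 higher than water are not the same 6 as called here by edgeR. They include RPL10B, set aside here (DESeq2 adjusted p = 0.0354), and leave out RPL9B (DESeq2 adjusted p = 0.0546). The shares of all loci in the deposited table with such a value are not given here. The authors' own mark of a passing gene was on 3 of the 50 at RB 2 h, 5 at RB 3 h and 2 in RBH against RB 2 h, and on 0 in the other 3 comparisons. The deposited log2 fold changes put the group named first on top (water in the comparisons with water, RB 2 h over RBH, RB 1 h over RB 3 h), so their sign is the reverse of the one used here.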

How the data were processed

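Per the labels, roots of wild-type seedlings were profiled in 15 libraries by MARS-seq, a method that counts the 3′ ends of transcripts. Per the submitters' processing notes, the authors used bcl2fastq, cutadapt, STAR 2.4.2a, HTSeq and DESeq2. The sources used here name no build, annotation or handling of molecular identifiers. Standard errors and p-values include the spread between the replicates and do not cover these unnamed steps. The deposited table gives whole-number read counts for 14391 loci. It also holds the authors' log2 fold changes, their adjusted p-values and their mark of passing genes, which the deposited table writes as yes or no (another unit, neither count nor ratio). A further 30 columns per library were not used.

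Counts were fitted with edgeR 4.0.16 in R 4.3.3: filterByExpr (9891 genes kept), TMM scaling, 1 fit of 15 libraries with a coefficient per group, the robust quasi-likelihood F test (two-sided) and Benjamini-Hochberg adjustment over all genes tested, at 0.05. A standard error is |log2 fold change| divided by the root of the F statistic. CPM use TMM-scaled totals. The common dispersion was 0.0425. 1 count was 0.175 to 1.18 CPM. Replicate pairs differed by more than counting error (chi-square per degree of freedom 3 to 11.1). Paralog ratios used an exact permutation test in scipy 1.17.1. The procedure was tested on simulated counts.

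The genes and lists were chosen with earlier results of these data known. Genes named with values in every library are up to 6 with the smallest p among those called at RB 2 h and up to 4 in each other comparison, the highest and lowest mean log2 fold change of each subunit, and the 4 pairs with the smallest permutation p. RPP1A, RPL4A, RPL24A, RPL24B, RACK1A, RPS6A, RPS6B and RPS11C were named after their values were seen. Same-letter libraries correlated at -0.209 to 0.247 in their deviations from group means, so letters were not taken as pairs. Alternatives changed scaling, totals, filter, test, libraries and the letter as a block.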

Additional observations from a re-analysis of the deposited data

Results flagged for a closer look

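4 genes were marked because their level differed between RB 3 h and RB 1 h, by edgeR's quasi-likelihood F test of RB 3 h minus RB 1 h. The log2 difference was -0.81 for RPP0B, which had 1435, 1637 and 1711 CPM in RB 3 h, against 2616, 3547 and 2243 CPM in RB 1 h. It was -0.75 for RPL4D, with 525, 549 and 558 CPM in RB 3 h, against 924, 959 and 859 CPM in RB 1 h. It was -0.76 for RPS3B, with 327, 304 and 322 CPM in RB 3 h, against 578, 604 and 434 CPM in RB 1 h, a call lost under 4 of 16 alternatives (adjusted p up to 0.0646). It was -0.70 for RPL19B, with 251, 319.7 and 317 CPM in RB 3 h, against 466, 652 and 322 CPM in RB 1 h, and -0.41 (adjusted p = 0.157) without RB 1 h b and RB 2 h a. Both groups were set against the same 1 h water libraries, so the water values cancel in these differences. There is no water group at 3 h, so longer action of RB and time alone cannot be told apart.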

How the results depend on the processing

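The counts of called genes are those of edgeR, with RB 1 h first in each list, then RB 2 h, RB 3 h, RBH against water, RBH against RB 2 h and RB 3 h against RB 1 h. They were 1, 14, 20, 6, 23 and 4 as reported, and the same with DESeq2's size factors and with TMM computed without ribosomal protein genes. Scaling by library totals alone moved the median of all genes by up to 0.23 on the log2 scale and gave 3, 10, 15, 4, 18 and 5. The DESeq2 Wald test gave 3, 15, 22, 7, 24 and 5, and a filter of 10 counts in 3 libraries gave 0 at RB 1 h and the reported counts elsewhere. Without RB 1 h b and RB 2 h a the counts were 16, 18, 22, 10, 28 and 5. With the replicate letter as a block (replicate block) they were 0, 12, 19, 4, 20 and 4. The labels do not say whether same-letter libraries share a source. Leaving out each library in turn gave 0 to 11, 3 to 18, 13 to 17, 1 to 8, 12 to 27 and 2 to 6. The cause of these shifts was not tested, and the share of all genes called under each alternative is not given here.

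The subunit balance against water, with each gene of all 50 weighted alike in log2 CPM, was -0.129 (RB 1 h), -0.0671 (RB 2 h), -0.113 (RB 3 h) and -0.13 (RBH), which includes RPL10B with 0, 1 and 0 counts in water. Over the 49 tested genes, chosen after seeing the data, it was -0.0799, 0.00842, -0.0351 and -0.05. Of 39 calls of named genes, 21 kept their side of the threshold under every alternative. Over 624 alternative values, 546 kept direction and side, 78 kept direction but lost the call, and 0 reversed. The 11 genes under 100 CPM were measured at low levels, and several of them did not follow library depth.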

Other observations

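A set of large- and small-subunit genes had its lowest water value in library water a. RPL36aB had 21.3, 110.4 and 85.9 CPM in water, RPL5B 40.2, 121 and 85.9 CPM, RPL9B 82.8, 182 and 177 CPM, RPL7aA 568, 1227 and 1084 CPM and RPS6A 647, 1356 and 1150.5 CPM. In RB 2 h, library b was the lowest for all 5 of these genes, with 159, 19.8 and 141 CPM for RPL36aB, 156, 63.7 and 154 CPM for RPL5B, 172, 154 and 198 CPM for RPL9B, 1264, 846 and 1102 CPM for RPL7aA and 915, 492 and 847 CPM for RPS6A. RPP0B and RPL19B were at their highest water value in water a. These genes were picked after their values were seen, and no cause was tested.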
